A study of Mus musculus with 16 samples.

Results

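Chromatin immunoprecipitation and sequencing placed SETD5-V5, a tagged form of the SET-domain protein SETD5, mostly over stretches of the genome that also carried H3K36me3 in wild-type neural stem cells, but 939 of the 5797 autosomal SETD5-V5 islands (16.2%) overlapped no wild-type H3K36me3 island by even 1 bp. An island is a stretch that the peak caller SICER called as enriched in reads. These 939 were a mixed set. Most were of ordinary width and density and lay about as often outside protein-coding genes as inside them, 100 were dense in reads, and 169 stood in local runs, among them runs over the major urinary protein genes and over a zinc finger cluster. The members were chosen by the presence of a SETD5-V5 island and the absence of a wild-type H3K36me3 island, so their number is a description. Over all chromosomes the SETD5-V5 list held 6143 islands.

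The series compared histone marks in Setd5+/- and wild-type neural stem cells and mapped SETD5-V5 in wild-type cells. Cells came from the telencephalic cortex of mouse embryos at E14.5, were grown as neurospheres, then attached on Matrigel and fixed with 1% formaldehyde. Libraries took 14 PCR cycles and were read as single 50 bp reads, with 1 library per mark and genotype, so no difference here has a replicate check and no p-value is given. The groups were Setd5+/- cells with 1 library for each of 6 marks (H3K4me1, H3K4me3, H3K27ac, H3K27me3, H3K36me2 and H3K36me3), wild-type cells carrying S5V5 with 1 library for SETD5-V5, and wild-type cells with 1 library for each of the same 6 marks. How the tag was introduced is not given in the sources used here, the 3 input libraries were not analysed here, and the sources used here name no V5 library from untagged cells. H3K4me3 and H3K27ac islands both stood at an end of 6 of the 8 neural stem cell and radial glia markers examined in wild-type cells (Fabp7, Slc1a3, Vim, Sox2, Nes and Hes5), while Pax6 and Msi1 had no H3K4me3 island there. Of the 4 markers each examined for neurons, for astrocytes and oligodendrocytes, and for microglia and blood, 0 had both marks, and of the 4 for endothelium and mesenchyme only Foxc1 did.

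H3K36me3 is laid down over the bodies of transcribed genes, chiefly by SETD2, which travels with elongating RNA polymerase II. H3K36me2 spreads more widely, H3K4me3 and H3K27ac mark active promoters, H3K4me1 marks enhancers and promoter flanks, and H3K27me3 is the mark of Polycomb repression. SETD5 is a SET-domain protein of the chromatin, and loss of 1 copy of its gene is a known cause of intellectual disability in people.

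The sequences below show the letters behind a feature of the promoters lying wholly inside members, many of them in near-identical copies. Single 50-base reads cannot tell such copies apart where they share a stretch as long as the read. RefSeq promoters of GRCm38.p6, from 250 bases before to 50 after a gene's start, lay wholly inside members for 92 protein-coding genes. These are counts of genes and not of members, because several of the 92 lay together in the same member. The promoter of lowest coordinate was taken for each gene and compared with all RefSeq promoters of other genes, alternative promoters included. Of the 92, 75 (81.5%) shared at least 1 stretch of 50 bases with another gene, against 17 of the 109 genes (15.6%) with a promoter wholly inside a SETD5-V5 island that had H3K36me3 and 3199 of the 16457 autosomal protein-coding genes with a promoter sequence (19.4%). At least 50% of the 251 possible 50-base stretches were shared in 47 of the 92 (51.1%), against 11 of the 109 (10.1%) and 1749 of the 16457 (10.6%), and in 17 of the 92 every stretch was. The promoters inside members were also poor in CpG, with a median of 2 CpG in 300 bases, against 9 in the 109 and 14 over all genes. Their median GC content was 43.2%, against 52.3% in the 109 and 56.7% over all genes. Only 1 of the 92 had 10 or more CpG, against 53 of the 109 and 9480 of the 16457.

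**Figure D1:**
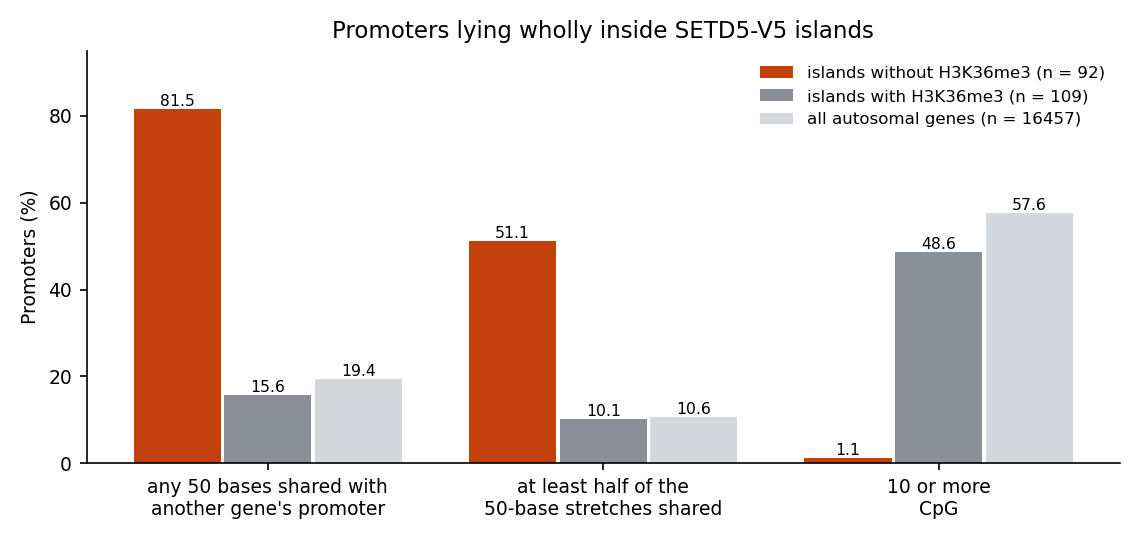
Share of 300-base RefSeq promoters (%, vertical axis) with any 50-base stretch found in the promoter of another gene, with at least 50% of such stretches shared, and with 10 or more CpG. Promoters inside SETD5-V5 islands without H3K36me3 (n = 92) stand at 81.5% and 51.1% for the 2 sharing measures and at 1.1% for CpG, beside promoters inside SETD5-V5 islands with H3K36me3 (n = 109) and those of all autosomal protein-coding genes (n = 16457).

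Shown 5′ to 3′ on the strand of the gene are 3 pairs of family members and, for contrast, a promoter that shared none of its stretches. Capitals mark bases that lie inside a 50-base stretch found, on either strand, in the promoter of another gene.
Mup15 (chr4:61439655-61439954, minus strand): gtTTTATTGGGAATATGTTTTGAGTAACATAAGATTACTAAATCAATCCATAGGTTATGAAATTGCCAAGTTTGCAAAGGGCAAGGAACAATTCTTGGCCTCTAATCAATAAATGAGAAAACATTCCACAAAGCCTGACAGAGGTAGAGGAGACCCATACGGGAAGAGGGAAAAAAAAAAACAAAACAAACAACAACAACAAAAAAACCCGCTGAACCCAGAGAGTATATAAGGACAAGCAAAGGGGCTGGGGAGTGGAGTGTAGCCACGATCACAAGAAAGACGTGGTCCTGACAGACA
Mup18 (chr4:61674045-61674344, minus strand): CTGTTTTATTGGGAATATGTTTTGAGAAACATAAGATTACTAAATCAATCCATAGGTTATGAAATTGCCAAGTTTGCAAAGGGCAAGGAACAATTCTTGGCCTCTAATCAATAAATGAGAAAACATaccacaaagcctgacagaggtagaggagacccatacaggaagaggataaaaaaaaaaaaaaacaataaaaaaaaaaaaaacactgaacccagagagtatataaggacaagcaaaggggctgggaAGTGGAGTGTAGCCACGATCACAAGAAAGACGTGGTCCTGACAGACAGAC
Speer4c (chr5:15714222-15714521, minus strand): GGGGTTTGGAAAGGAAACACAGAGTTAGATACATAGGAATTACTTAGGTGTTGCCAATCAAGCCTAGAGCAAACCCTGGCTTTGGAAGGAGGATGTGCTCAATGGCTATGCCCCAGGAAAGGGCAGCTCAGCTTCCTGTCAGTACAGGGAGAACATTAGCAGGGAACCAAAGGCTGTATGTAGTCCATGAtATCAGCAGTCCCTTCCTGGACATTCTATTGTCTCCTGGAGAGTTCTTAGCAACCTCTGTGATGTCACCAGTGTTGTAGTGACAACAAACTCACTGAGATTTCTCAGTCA
Speer4d (chr5:15618849-15619148, plus strand): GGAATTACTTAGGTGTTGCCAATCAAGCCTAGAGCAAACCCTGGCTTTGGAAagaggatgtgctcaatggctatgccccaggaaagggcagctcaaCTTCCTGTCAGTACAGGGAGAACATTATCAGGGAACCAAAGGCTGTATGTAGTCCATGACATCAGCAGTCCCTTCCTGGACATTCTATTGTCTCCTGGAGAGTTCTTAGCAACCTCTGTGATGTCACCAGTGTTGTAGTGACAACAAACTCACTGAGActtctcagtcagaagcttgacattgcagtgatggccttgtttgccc
Zfp600 (chr4:146156577-146156876, plus strand): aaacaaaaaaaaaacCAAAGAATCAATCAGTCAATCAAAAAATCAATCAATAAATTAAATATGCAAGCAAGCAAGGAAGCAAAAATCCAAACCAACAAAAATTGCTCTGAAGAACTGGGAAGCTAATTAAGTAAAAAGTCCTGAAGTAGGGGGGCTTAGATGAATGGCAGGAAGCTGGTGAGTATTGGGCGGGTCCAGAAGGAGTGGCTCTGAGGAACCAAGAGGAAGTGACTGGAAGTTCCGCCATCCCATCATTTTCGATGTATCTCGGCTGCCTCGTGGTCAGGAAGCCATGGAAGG
Rex2 (chr4:147021600-147021899, plus strand): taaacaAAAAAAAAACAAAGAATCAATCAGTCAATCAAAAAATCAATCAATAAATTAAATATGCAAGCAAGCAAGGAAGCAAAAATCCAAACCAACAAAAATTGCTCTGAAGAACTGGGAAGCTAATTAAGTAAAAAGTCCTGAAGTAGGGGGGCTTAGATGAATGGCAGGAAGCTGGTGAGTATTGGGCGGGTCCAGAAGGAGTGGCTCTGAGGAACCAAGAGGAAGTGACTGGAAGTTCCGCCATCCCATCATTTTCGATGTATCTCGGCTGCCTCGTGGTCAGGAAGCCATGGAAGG
Chml (chr1:175688304-175688603, minus strand): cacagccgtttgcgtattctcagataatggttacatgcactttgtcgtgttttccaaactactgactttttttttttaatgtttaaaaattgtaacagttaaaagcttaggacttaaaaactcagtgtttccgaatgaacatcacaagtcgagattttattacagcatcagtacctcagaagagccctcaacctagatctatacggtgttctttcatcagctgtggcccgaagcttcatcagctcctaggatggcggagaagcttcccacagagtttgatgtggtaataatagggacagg
Mup15 and Mup18 encode major urinary proteins, pheromone carriers made in mouse liver. The Mup15 promoter was in capitals at 298 of 300 bases and shared stretches with 10 other genes, and that of Mup18 at 176 bases, shared with 8 genes. Speer4c and Speer4d belong to a family named from the testis, and their promoters were in capitals at 299 and 210 bases, shared with 22 and 13 genes. The promoters of the zinc finger genes Zfp600 and Rex2 were in capitals at 285 and 294 bases, and each shared stretches with promoters of 4 genes, in the case of Zfp982 with an alternative promoter of that gene. Chml, a Rab escort protein gene, had 0 bases in capitals and 8 CpG.

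The members covered 15.4 Mb, 13.5% of the length of all autosomal SETD5-V5 islands, and held 354836 reads, or 15.2% of the reads in those islands (95% Wilson interval 15.1% to 15.2%, which covers counting error only). They were narrower than the rest. Their median width was 12.0 kb (quartiles 8.0 and 17.2 kb, extremes 0.8 and 271.2 kb), against 16 kb in the 4858 islands with H3K36me3 (quartiles 11.2 and 24.8 kb). The median member held 195 reads, against 285 in the others. Read density differed less at the median, with 16.9 reads per kb in members and 17.9 reads per kb in the others, and 61.2% of members lay below the median of all autosomal islands (17.8 reads per kb), against 47.7% of the others. At the upper end the order turned, with a 95th percentile of 58.2 reads per kb in members and 22.3 reads per kb in the others. The single densest islands of the list were among the others, up to 4365 reads per kb, against 410.0 reads per kb in members.

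At 30 reads per kb or more, a level chosen after the values were seen, stood 100 members (10.6%) and 26 of the others (0.535%), with 2.17% over all autosomal islands. These 100 members held 35.3% of all member reads and fell into 2 kinds. The first kind was narrow, at most 4.8 kb: 65 members with a median width of 1.6 kb and a median density of 68.8 reads per kb, 27 of them a single window of 800 bp. Of the 65, 47 met no histone list and 18 overlapped a protein-coding gene. The fewest reads in any member were 40, and no member under 30 reads per kb was narrower than 3.2 kb. The second kind was broad: 35 members with a median width of 54.4 kb and 40.4 reads per kb, which held 32.0% of all member reads. Of these, 26 overlapped a protein-coding gene, 23 an annotated pseudogene and 24 another list.

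**Figure D2:**
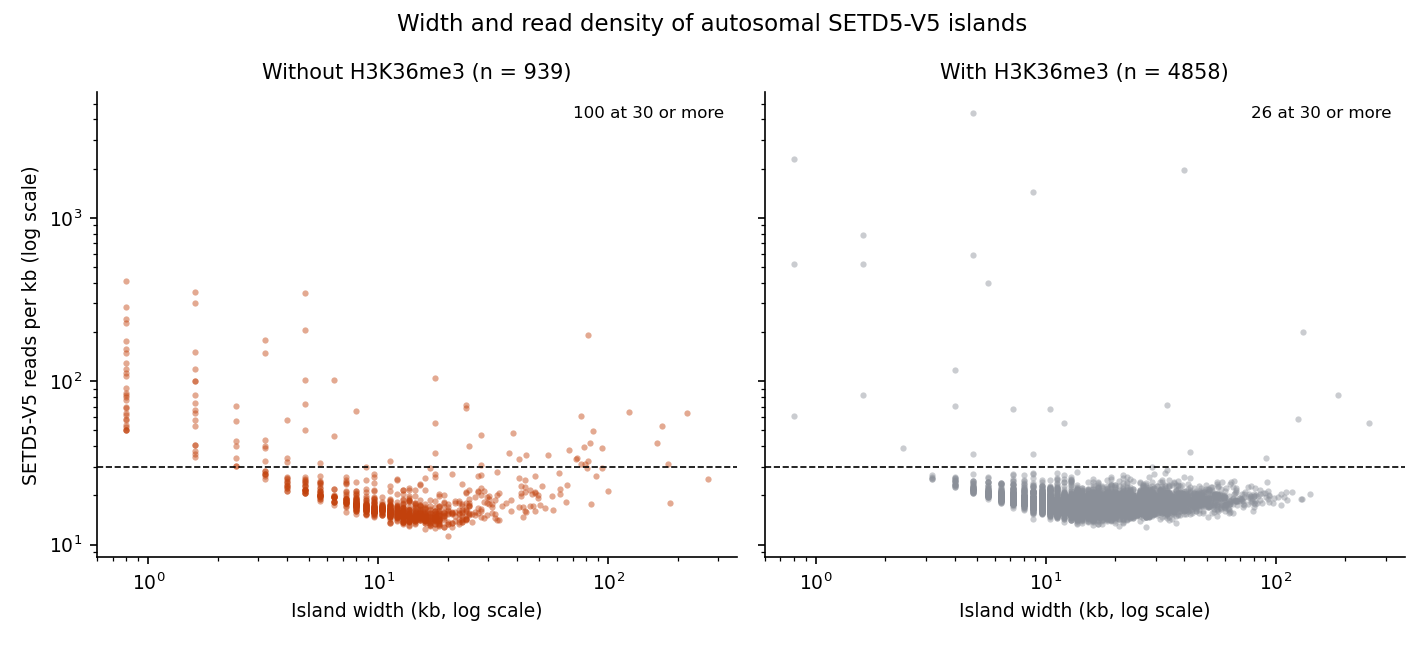
Width (kb, log scale) against SETD5-V5 read density (reads per kb, log scale) of each autosomal SETD5-V5 island, with the 939 without wild-type H3K36me3 on the left and the 4858 with it on the right. The dashed line is 30 reads per kb, which 100 members and 26 others reach. Members form a narrow dense group at the left edge and a broad dense group at the right, beside the main body near 17 reads per kb.

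The densest members were small and mostly bare of histone islands. The highest was a single window at chr9:24541601-24542400 with 328 reads, or 410.0 reads per kb, in no histone list and in no annotated gene. Next came chr17:4625601-4627200 with 351 reads per kb, chr15:75084801-75089600 with 348 reads per kb, and chr10:22141601-22143200 over E030030I06Rik with 301 reads per kb. Among the 10 densest, single windows also stood in Oasl1, of the interferon-induced OAS family (282.5 reads per kb, 2 histone lists), in Spag17, a sperm axoneme gene (240.0 reads per kb), and in Fbxw4, an F-box protein gene (227.5 reads per kb). Of these 10, 6 met no histone list, and of the 20 densest, whose lowest had 107.5 reads per kb, 14 met none and 11 were 800 bp wide.

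The members with the most reads were instead long blocks over repeated genes. The top 10 held 78734 reads, 22.2% of all member reads, in widths from 76.0 to 271.2 kb, and 9 of them overlapped a protein-coding gene. Sfi1, which encodes a centrin-binding protein of the centrosome, lay under chr11:3119201-3200800, with 15695 reads at 192 reads per kb over 81.6 kb, and 96.4% of the gene was inside the island. Next was chr8:20492801-20712000 with 13992 reads at 63.8 reads per kb over 219.2 kb. Speer4d and Speer4c shared chr5:15546401-15716800 with 9038 reads at 53.0 reads per kb, and Speer4e lay in chr5:14899201-15062400 with 6879 reads at 42.2 reads per kb. Prl2c3 and Prl2c2, placental hormones of the prolactin family, lay in the widest member, chr13:12732001-13003200, with 6865 reads at 25.3 reads per kb. Zfp978, Zfp988 and Zfp982 shared chr4:147321601-147503200 with 5691 reads at 31.3 reads per kb. Another 3 blocks on chromosome 1 lay next to each other between 84953601 and 85347200, with 38.8, 61.6 and 65.2 reads per kb.

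Members clustered along the chromosomes. With a gap of at most 100 kb between neighbours they formed 677 groups, 582 of them lone members, and 19 runs of at least 5 held 169 members (17.998%) and 33.1% of the member reads. Members in runs had a median width of 18.4 kb and a median of 18.7 reads per kb. The largest run had 21 members over chr12:115062401-115998400, and 14 of them overlapped an immunoglobulin V gene segment. V segments were met by 18 members in all and by 0 of the islands with H3K36me3. The second run had 18 members over chr4:146708001-147828800, where Rex2 and 10 named Zfp genes lie, at 30.8 reads per kb. A run of 6 at chr6:130036801-130383200 covered Klra genes, which encode Ly49 receptors of natural killer cells, at 23.6 reads per kb. A run of 8 at chr3:93744001-94295200 covered Tdpoz3, Tdpoz4 and Tdpoz9. Runs were not all multicopy: 5 members at 16.4 reads per kb lay inside Adgrb3, an adhesion receptor of neurons.

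Counted by gene, members touched 446 of 20665 autosomal protein-coding genes (2.16%), of which 89 lay wholly inside a member. Also 89 of the 446 were touched by a SETD5-V5 island with H3K36me3, near the general rate of 4418 of 20665 genes (21.4%). Of the 446, 315 had no wild-type H3K36me3 anywhere in their span, and the same share over all genes is not given here. The major urinary proteins were touched most, 16 of 24 genes (66.7%), by 15 members on chromosome 4 with 15.1 to 19.95 reads per kb (median 17.1). Of these 15, 11 met no histone list and 0 had H3K36me3 in Setd5+/- cells. Members touched 4 of 10 Speer genes and 31 of 391 Zfp genes (7.93%). The 39 members over Zfp genes, 23 of them on chromosome 4, had a median of 22.3 reads per kb, and 13 of the 39 met wild-type H3K4me3. SETD5-V5 islands with H3K36me3 touched 0 Mup and 0 Speer genes but 143 Zfp genes. Members touched 6 of 354 vomeronasal receptor genes, 1 of 1104 olfactory receptor genes (Olfr1474), 2 of 25 prolactin family genes, 2 of 99 cytochrome P450 genes (Cyp3a41a and Cyp3a41b), 0 of 75 histone genes and 0 of 62 serpins. The 12 Pcdha genes met, neuronal protocadherins of a shared annotated span, all came from 1 member of 12.0 kb.

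Short lists of genes of neural and general cell functions were, apart from axon guidance, not touched. Members touched 0 of 24 genes of neural stem cells and radial glia, 0 of 25 neuronal differentiation genes, 0 of 23 synapse genes, 0 of 24 H3K36 methylation enzymes and readers, 0 of 11 genes of the HDAC3-NCoR and PAF1 complexes, 0 of 34 ribosomal protein genes, 0 of 26 RNA polymerase II and splicing genes and 0 of 37 Hox genes. SETD5-V5 islands with H3K36me3 touched 8, 3, 5, 15, 6, 12, 18 and 0 of these in the same order. Those islands touched 21.4% of all autosomal protein-coding genes. Synapse genes (21.7%) were near that rate, neuronal differentiation (12.0%) and Hox genes (0%) below it, and the remaining lists above it, at 33.3% to 69.2%. Members met only 2.16% of all genes, so a list of this length would hold few genes met by a member at their general rate. Members also touched 0 of 15 astrocyte and oligodendrocyte genes, 0 of 12 microglia and blood genes and 0 of 15 endothelium and mesenchyme genes. The exception was axon guidance and adhesion, with 4 of 25 genes: the cadherin Cdh10 (9.73% of its span inside members), the ephrin receptor Epha5 (4.41%), the guidance receptor Robo2 (0.514%) and the semaphorin Sema3a (4.57%). All 4 have long spans, from 197338 bases in Cdh10 to 1555468 bases in Robo2, and 3 of them had no wild-type H3K36me3, while H3K36me3 covered 26.1% of Cdh10.

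Protein-coding genes were overlapped by 439 members (46.8%, Wilson interval 43.6% to 49.9%), against 4808 of the other islands (99.0%), and 90.5% of all autosomal SETD5-V5 islands did so. Because H3K36me3 itself lies over genes, this contrast is tied to the way the members were chosen. By length, 38.3% of member bases and 93.8% of the others' bases lay in protein-coding genes. The members divided into 5 positions. In 150 (15.97%) the gene carried wild-type H3K36me3 elsewhere in its span. In 135 (14.4%) the gene had none but an H3K4me3 or H3K27ac island stood within 1 kb of 1 of its ends. In 154 (16.4%) the gene had neither. Another 146 (15.5%) met only a pseudogene, an RNA gene or a V segment, and 354 (37.7%) met no annotated gene. Pseudogenes were met by 138 members (14.7%), against 281 of the others (5.78%). Exons and introns were not analysed here.

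The genes holding the longest stretches were of both kinds. Zfp978 had 219 kb inside members (82.0% of its span), Rex2 70.4 kb (80.7%) and Zfp982 69.8 kb (95.6%), with no H3K36me3 in either genotype. Zfp993 had 203 kb (42.5%), with H3K36me3 over 0.501% in Setd5+/- cells and 1.00% in wild-type cells. Outside the families stood long single-copy genes with islands mostly near 15 reads per kb. Cpq, a plasma carboxypeptidase, had 4 members of 13.4 to 20.8 reads per kb over 64.0 kb (12.5% of its span). Stk3, a Hippo pathway kinase, had 3 members over 53.6 kb (19.1%), and Kifap3, the kinesin-2 adaptor, 2 members over 39.2 kb (25.3%). Faf1, a Fas-binding factor, held 46.4 kb (16.1%), Wdr70 38.4 kb (17.0%) and Tanc2, a synaptic scaffold, 37.6 kb (11.1%). Of these genes Faf1, Wdr70 and Tanc2 carried wild-type H3K36me3 elsewhere, over 18.1%, 21.6% and 3.30% of their spans, and Cpq, Stk3 and Kifap3 had none in wild-type cells.

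Members were mostly far from the mark that others carried, and those outside protein-coding genes were farthest from it. The 500 members outside protein-coding genes lay a median of 104.6 kb from the nearest, with 253 of them over 100 kb away and 65 within 10 kb. Of those 65, 39 lay before a gene's start, 21 past its 3′ end and 5 beside a gene with no strand in the table used. Over all 939 members, the nearest wild-type H3K36me3 island was a median of 325.6 kb away (quartiles 59.2 and 756.8 kb). It was over 1000 kb away for 191 members and up to 5288 kb. By position the median was 12.0 kb in genes with H3K36me3 elsewhere, and 135.2 and 414.8 kb in the other protein-coding genes, with and without a marked end. It was 443.2 kb over other annotated genes only and 529.2 kb with no annotated gene. Few members sat at the edge of the rule: 82 lay within 10 kb of H3K36me3, 30 within 2400 bp (10 of them at exactly that distance) and 5 directly abutted an island of it. The 5 abutting members lay in Arhgap29, Tut4, Wdr70, Nudcd1 and Polq and had 15.5 to 16.4 reads per kb. Just outside the rule, with a single 800 bp window of overlap, lay islands in Rgs20 (17.0 reads per kb), Fam126b (15.4), Ube2k (17.5) and 1 at chr1:98576801-98588800 (14.8). An island in Frmd4b (61.3 reads per kb) had the same overlap but was itself 800 bp wide, so H3K36me3 covered it whole.

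Most members carried no other measured mark. Of the 11 histone lists open to a member, none was met by 575 (61.2%, Wilson interval 58.1% to 64.3%), against 50 of the others (1.03%) and 10.8% of all autosomal SETD5-V5 islands. A single list was met by 194 members (20.7%) and 2 to 5 lists by 160. At the other extreme, 10 members (1.06%) met 6 or more, against 384 of the others (7.90%) and 6.80% of all islands, and the most met by any member was 8. In wild-type lists alone, 769 members (81.9%) met nothing. Density was higher at members in several lists: those in 0 lists had a median of 16.5 reads per kb, those in 3 lists 21.4, in 4 lists 24.8, in 5 lists 21.7 and the 6 members in 6 lists 25.3 reads per kb. Width moved with it, with a median of 11.2 kb in 0 lists and 48.8 kb in 6 lists, and a wider island has more room for a 1 bp overlap.

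The 10 members in 6 or more lists were of several kinds. Lypla1, an acyl-protein thioesterase gene, and Mrpl44, a mitochondrial ribosomal protein gene, carried promoter marks in both genotypes and H3K36me3 over 100% of the island in Setd5+/- cells. Their densities were 16 and 23.0 reads per kb. Pisd, a phospholipid enzyme of mitochondria, met 8 lists at 30.9 reads per kb, and Pisd-ps1, a pseudogene by name, lay in the Sfi1 member. The others lay over multicopy or clustered genes: Chia1, Chil3 and Chil4 (chitinase and chitinase-like proteins), the zinc finger blocks at Zfp978 and Zfp984, the Prl2c genes, H60c (a ligand of the natural killer receptor NKG2D), the Gm4301 cluster on chromosome 10 and the chromosome 8 block at 20492801. In that chromosome 8 block the called histone islands had 58.0 reads per kb for H3K27me3 in Setd5+/- cells and 61.9 reads per kb in wild-type cells, beside 63.8 reads per kb for SETD5-V5. The other lists there ranged more widely, with 23.9 reads per kb for H3K27ac in Setd5+/- cells, 45.5 in Setd5+/- and 61.4 in wild-type cells for H3K4me1, and 67.2 in Setd5+/- and 143 in wild-type cells for H3K4me3. The libraries differ in depth. Input reads over these members were not analysed here.

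H3K27me3 was found far more often at members than at the other islands. All of those others carried wild-type H3K36me3, so this contrast is tied to the way the members were chosen. The share of H3K27me3 over the whole genome is not given here. In Setd5+/- cells it met 90 members (9.58%), against 16 of the others (0.329%) and 1.83% of all autosomal SETD5-V5 islands. In wild-type cells it met 85 members (9.05%), against 17 of the others (0.350%) and 1.76% of all islands. The 2 genotypes shared 45 of these members, 45 had it only in the Setd5+/- list and 40 only in the wild-type list, so 50.0% of the Setd5+/- set and 52.9% of the wild-type set were shared. Coverage was partial, with a median of 12.2% of the island in Setd5+/- cells and 15.0% in wild-type cells. In wild-type cells 57 of the 85 had none of H3K4me1, H3K4me3 and H3K27ac. Any of these marks was rarer over all 939 members, where 94 (10.0%) met at least 1. The 85 were also wider, with a median of 21.6 kb against 12.0 kb over all members, which leaves more room for an overlap. Dense members made up 18 of the 85, and 100 of all 939 (10.6%). The longest H3K27me3 stretch of the wild-type list was at Chia1, Chil3 and Chil4, where it covered 30.5% of the 185.6 kb member in Setd5+/- cells and 59.1% in wild-type cells. A 24.0 kb member at chr8:20812001-20836000 was covered over 98.3% in both genotypes. It was dense in all 3 libraries, with 68.1 reads per kb for SETD5-V5. Its H3K27me3 islands had 58.2 reads per kb in Setd5+/- and 66.1 in wild-type cells. The 95th percentiles of those lists were 38.5 and 45.7 reads per kb. Whether repeated sequence or input signal has a part in these values was not tested.

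The marks of active promoters and enhancers were less frequent at members than at the other islands, a contrast also tied to the way the members were chosen. H3K4me1 met 49 members in Setd5+/- cells (5.22%, others 17.2%, all islands 15.3%) and 52 in wild-type cells (5.54%, others 23.0%, all 20.2%). H3K4me3 met 28 in Setd5+/- cells (2.98%, others 11.8%, all 10.4%) and 42 in wild-type cells (4.47%, others 11.1%, all 10.0%). H3K27ac met 38 in Setd5+/- cells (4.05%, others 15.5%, all 13.6%) and 48 in wild-type cells (5.11%, others 14.2%, all 12.7%). Among the 364 members at or above the median density of autosomal islands, wild-type H3K4me1 met 10.99%, H3K4me3 9.34% and H3K27ac 10.2%. The others were not filtered by density in the same way, so the gap at like density is not known. Of the wild-type sets, 17 members carried H3K4me3 together with H3K27ac and 22 carried H3K4me1 together with H3K27ac. Genotypes shared 19 members for H3K4me1, 19 for H3K4me3 and 10 for H3K27ac.

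**Figure D3:**
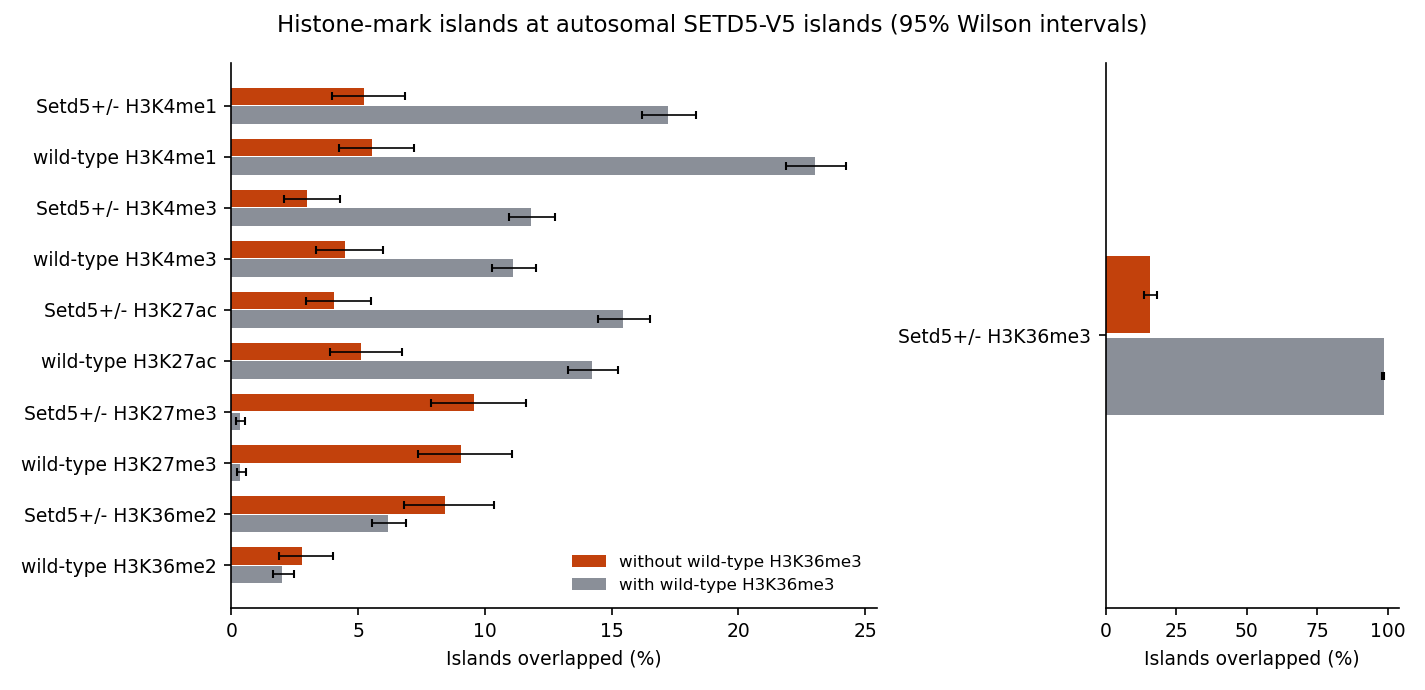
Share of autosomal SETD5-V5 islands (%, horizontal axis) overlapped by at least 1 bp of an island of each histone list, for the 939 islands without wild-type H3K36me3 and the 4858 with it; whiskers are 95% Wilson intervals. H3K27me3 has the larger share among the islands without H3K36me3 (9.58% against 0.329% in Setd5+/- cells), and Setd5+/- H3K36me3, on its own axis at the right, meets 15.7% and 98.6%.

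H3K36me2, the lower methylation state, gave a share close to the background in wild-type cells, with 26 members (2.77%), 98 of the others (2.02%) and 2.14% of all islands. In Setd5+/- cells it met 79 members (8.41%), 300 of the others (6.18%) and 6.54% of all islands. Only 11 members were in both genotypes' lists, with 68 in the Setd5+/- list alone and 15 in the wild-type list alone. Of the 79 members in the Setd5+/- list, 68 lay on chromosomes 1, 4 and 15, 45 of them on chromosome 1 and 14 on chromosome 15. These 3 chromosomes held 317 of all members (33.8%). The chromosomes of the 300 others with Setd5+/- H3K36me2 are not given here. Where present in Setd5+/- cells it covered a median of 89.2% of the island, and in wild-type cells 68.6%.

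In Setd5+/- cells H3K36me3 covered part of what it left bare in wild-type cells. A Setd5+/- H3K36me3 island overlapped 147 members (15.7%, Wilson interval 13.5% to 18.1%), against 4789 of the others (98.6%) and 85.1% of all autosomal SETD5-V5 islands. The wild-type value is 0 at every member by the way they were chosen, so a gain was the only difference that could be seen. Coverage was extensive once present: the median was 85.7% of the member, 57 members were covered whole and 116 by at least 50%. The density of the 158 Setd5+/- islands concerned was 15.5 reads per kb at the median, close to the 16.2 of the whole list, and the whole Setd5+/- list was deeper inside islands, with 3561439 reads, against 2468530 in the wild-type list.

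These 147 members were nearly all genic. A protein-coding gene lay under 141 of them (95.9%), against 298 of the 792 members without Setd5+/- H3K36me3 (37.6%). By position, Setd5+/- H3K36me3 met 81 of the 150 members in genes with wild-type H3K36me3 elsewhere (54.0%) and 52 of the 135 in genes with only an H3K4me3 or H3K27ac end (38.5%). It met 8 of the 154 in genes with neither (5.19%), 3 of the 146 over other annotated genes (2.05%) and 3 of the 354 with no annotated gene (0.847%). The median distance to a wild-type H3K36me3 island was 18.4 kb for members with the Setd5+/- mark and 399.2 kb for those without it. In 47 members the Setd5+/- island reached a wild-type one, and 105 members met a Setd5+/- island that reached none, some members meeting both kinds. It was rare in the runs, at 6 of 169 members, and frequent among the 691 members outside runs and under 30 reads per kb, at 139.

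**Figure D4:**
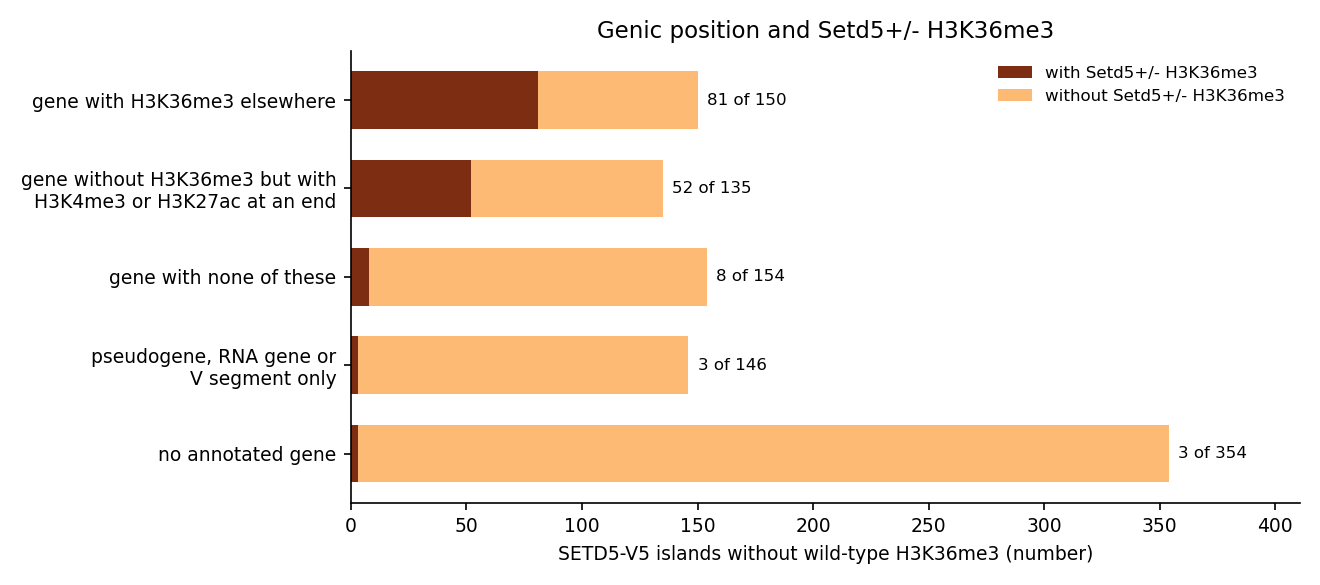
Number of SETD5-V5 islands without wild-type H3K36me3 (horizontal axis) in each of 5 genic positions, split by whether a Setd5+/- H3K36me3 island overlaps them. The dark share is 81 of 150 in genes with H3K36me3 elsewhere and 3 of 354 where no gene is annotated.

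The longest of these stretches were in genes outside the multicopy families and in the zinc finger cluster. Of those named in this paragraph, Fn1, Pms1 and Nme7 lay on chromosome 1, Zfp992 on chromosome 4, Wdr70 on chromosome 15 and Myo9a on chromosome 9. Setd5+/- H3K36me3 met 23.7% of the members on chromosomes 1, 4 and 15 and 11.6% of those on the other autosomes. The part of chromosome copy number in these stretches was not tested. Zfp992 lay under a 66.4 kb member of which 43.4% carried H3K36me3 in Setd5+/- cells. Fn1, which encodes fibronectin, held a member of 27.2 kb with 15.6 reads per kb, covered over 100% in Setd5+/- cells at 19.3 reads per kb. Over the whole Fn1 gene H3K36me3 covered 96.9% in Setd5+/- cells and 0% in wild-type cells. Pms1, a mismatch repair gene, held a 29.6 kb member covered over 89.2%, and there H3K36me2 covered the same 89.2% in Setd5+/- cells. Members in Wdr70 and in Nme7, a nucleoside diphosphate kinase gene, were covered over 100%, and a member in Myo9a, an unconventional myosin gene, over 89.7%.

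On chromosome 11, 3 neighbouring members showed both behaviours side by side. The Sfi1 member, with 192 reads per kb, had no H3K36me3 in either genotype. The next, at chr11:3204001-3232800 in Eif4enif1, the eIF4E transporter gene, had 18.3 SETD5-V5 reads per kb and was covered over 94.4% in Setd5+/- cells. The third, at chr11:3240001-3264800 in Eif4enif1 and Drg1, a GTP-binding protein gene, had 19.03 reads per kb and was covered over 100%. Over the whole gene, Eif4enif1 had H3K36me3 across 92.3% of its span in Setd5+/- cells and 0% in wild-type cells, and Drg1 across 90.0% and 0%.

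Members were unevenly spread over the autosomes. Chromosomes 15, 4 and 1 had 0.712, 0.697 and 0.686 members per Mb, against 0.176 to 0.553 (median 0.294) on the other 16 autosomes, and together held 317 members (33.8%). The islands with H3K36me3 were also a little denser there, with medians of 18.9, 18.1 and 18.9 reads per kb on chromosomes 15, 4 and 1, against 17.4 to 17.9 elsewhere. On chromosome 4, 55 members lay between 30 and 80 Mb, or 1.1 per Mb, where the islands with H3K36me3 had a median of 18.6 reads per kb, against 17.95 on the rest of the chromosome. Many of the 55 stood close together, in runs of 5, 9 and 9 members over the major urinary protein genes. The number of members per Mb in the segment without these runs is not given here. Another 35 members of chromosome 4 lay from 140 Mb on, in the zinc finger region. Setd5+/- H3K36me3 met 75 of the 317 members on these 3 chromosomes (23.7%) and 72 of the 622 on the other 16 (11.6%). Members themselves were not denser on 2 of the 3, with medians of 15.8, 17.9 and 15.9 reads per kb on chromosomes 15, 4 and 1, and as a share of a chromosome's SETD5-V5 islands members were highest on chromosome 14 (28.75%). The part of chromosome copy number in the cultures in these values was not tested.

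**Figure D5:**
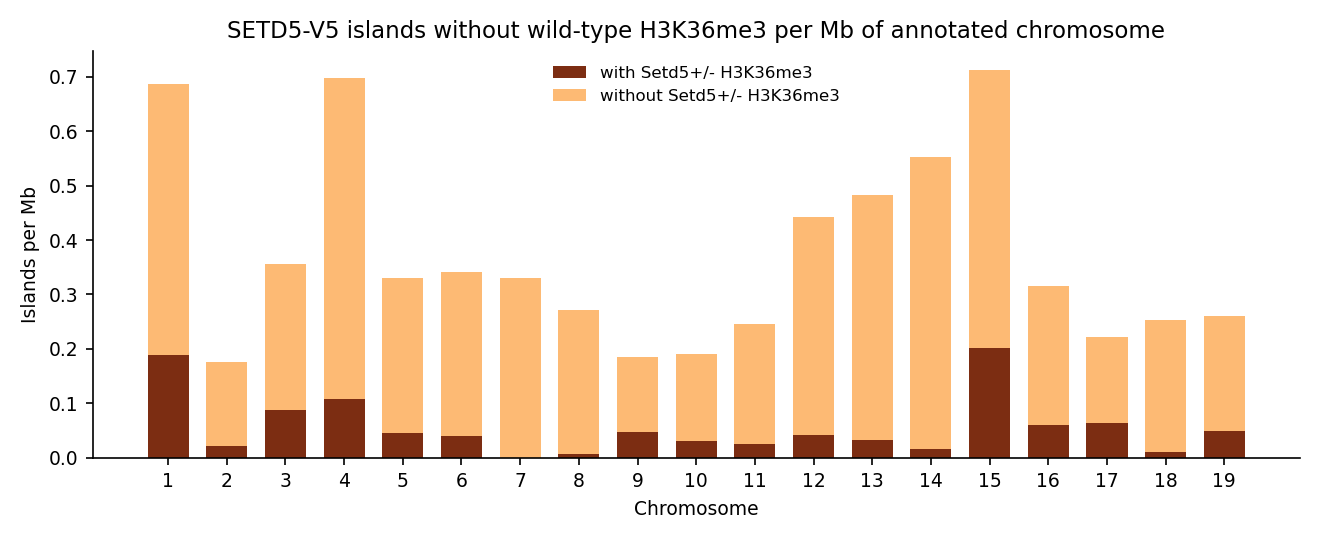
Number of SETD5-V5 islands without wild-type H3K36me3 per Mb of annotated chromosome (vertical axis) for each autosome, split by overlap with Setd5+/- H3K36me3. Chromosomes 1, 4 and 15 stand highest at 0.686, 0.697 and 0.712 per Mb, with chromosome 14 next at 0.553.

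With the dense members and the runs set aside, 691 members (73.6%) remained. They had a median width of 12.0 kb and a median of 16.1 reads per kb, 331 (47.9%) overlapped a protein-coding gene, and 420 (60.8%) met no histone list. Wild-type H3K27me3 met 54 of them and 21 of the 169 members in runs.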

How the data were processed

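Islands of 13 ChIP-seq libraries were used. Per the submitters' processing notes, FastQC, Bowtie2 2.2.3 and SICER 1.1 were used with GRCm38 (mm10). SICER was run at a false discovery rate of 0.01, with windows of 800 bp and gaps of 2400 bp, for SETD5-V5, H3K36me3 and H3K36me2, per the file headers. For the other lists the settings are not given in these sources. Each island's deposited whole number was taken, from its values, to be the authors' raw count of reads. Libraries had between 1019278 and 5093126 reads in islands, and depth outside islands is unknown.

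Coordinates are given from 1. Members, and overlaps with other lists, needed 1 bp. Reads per kb are the count over the width. Genes were 20665 autosomal protein-coding genes of RefSeq GRCm38.p6, and a gene end was marked by an island within 1 kb. Promoters came from the same RefSeq build, 1 per gene. Intervals are 95% Wilson intervals from scipy 1.17.1 and cover only counting error, because each group is 1 library. They treat islands as separate, although 169 members stood in runs. The interval on reads treats reads as separate, although PCR copies are not separate molecules. Python 3.11.15, pandas 2.3.3, numpy 2.4.6 and matplotlib 3.10.9 were used. Overlaps were tested on simulated data. No test was run, with 1 library per group, and results were recomputed under 8 planned and 2 added alternatives.

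The members and the gene lists were chosen with earlier results of these data known. Named members were the 10 with most reads per kb, most reads or greatest width, those nearest to the rule's edge, the 10 longest in Setd5+/- H3K36me3 and those in 6 or more lists. Named genes lay in these members, in the gene lists or among the 20 with the longest stretches in members, and predicted genes were left out with few exceptions.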

Additional observations from a re-analysis of the deposited data

How the results depend on the processing

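Over 12 results and 10 alternatives, 104 values were computed and 75 stayed within the interval of the reported value or within 1.5 times the reported count. With members of at least the median reads per kb, a choice that removes the sparse ones by construction, 364 members remained, with a median width of 8 kb and 21.7 reads per kb. Of these, 2.47% were in 6 or more lists, 51.4% in no list, 10.4% in Setd5+/- H3K36me3, 10.99% in wild-type H3K4me1, 9.34% in H3K4me3, 10.2% in H3K27ac and 17.9% in H3K27me3. Without chromosomes 1, 4 and 15 there were 622 members at 17.1 reads per kb, 66.4% in no list, 43.6% in a protein-coding gene, 11.6% in Setd5+/- H3K36me3 and 2.73% in wild-type H3K4me3. Where 10% of a member had to be covered, 0.213% were in 6 or more lists, 69.8% in none, and 1.92% in wild-type H3K4me1, 1.70% in H3K4me3, 1.49% in H3K27ac and 5.75% in H3K27me3. Where H3K36me3 within 2400 bp also counted as present, 909 members remained and 13.4% had Setd5+/- H3K36me3. With no H3K36me3 in either genotype, 72.6% were in no list and 37.6% in a protein-coding gene. The other 2 alternatives were chosen after seeing the data. Without runs of at least 5 the density was 16.5 reads per kb and 18.3% had Setd5+/- H3K36me3. Without members of at least 30 reads per kb the density was 16.5 reads per kb and 2.98% had wild-type H3K4me3. For the values outside the interval the cause was not tested beyond what each choice removes. H3K27me3 stayed above its share in all autosomal islands (1.76%) under every alternative run, and most of those islands carried wild-type H3K36me3 by the rule. No paired analysis was possible because each group is 1 library and no test was run.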

Other observations

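The X chromosome, which the autosomal rule leaves out, held 343 SETD5-V5 islands. Of these, 277 (80.8%) met no wild-type H3K36me3 island. Their median width was 15.2 kb and their median density 16.5 reads per kb. H3K27me3 met 27 of the 277 in Setd5+/- cells and 63 in wild-type cells. The labels used here give no embryo sex for either genotype. The H3K27me3 lists also differed in reads inside islands, with 1398086 in Setd5+/- and 2297833 in wild-type cells. The part of sex or depth in these counts was not tested, and the share over all 343 X islands is not given here. The Y chromosome held 3 SETD5-V5 islands, 2 of them without H3K36me3.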
